A study of Mus musculus with 12 samples.

Results

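The 10 genes described here encode secreted chemokines of the CXC and CC families that belong to the senescence-associated secretory phenotype (SASP). They were Cxcl1, Cxcl2, Cxcl5, Cxcl12, Cxcl14, Cxcl16, Ccl2, Ccl7, Ccl8 and Ccl5, 10 of the 49315 gene identifiers counted. They were chosen by name, with earlier results of these data known. RNA-seq gave gene counts for 12 libraries of MAFs (mouse adult fibroblasts). These are primary ear cells of adult female mice, either C57BL6/J (WT) or Bmal1-/- (KO), the latter described by the authors as deficient in BMAL1. The 4 groups held 3 libraries each. WT control and KO control cells were sham irradiated, and WT senescent and KO senescent cells received 20 Gy of X-rays and were then kept in culture. All 4 groups were given 100 nM dexamethasone, which sets circadian clocks to a common phase, and were collected 12 h later. Dexamethasone is also an anti-inflammatory glucocorticoid, so no group shows chemokine mRNA without that drug. The sources used here do not say whether the 3 libraries of a group came from separate mice or cultures, so p-values measure the spread between these libraries, which may be technical.

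Chemokines are small secreted proteins that bind receptors on leukocytes and draw them along a gradient. CXC chemokines that carry a glutamate-leucine-arginine (ELR) motif before the first cysteines, such as CXCL1, CXCL2 and CXCL5, act on CXCR2 and attract neutrophils. CCL2 and CCL7 attract monocytes, mainly through CCR2, and CCL8 is grouped with them here by family, as a monocyte chemoattractant protein by name. In senescent fibroblasts these factors are part of the SASP, whose genes are driven in large part by NF-kB and C/EBP factors, and BMAL1, a clock transcription factor, binds E-box sequences.

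Libraries held 23923030 to 31736083 counts, so that 3 counts, used here as the detection floor, equalled 0.101 to 0.135 CPM, the usual unit of counts scaled to a common library total. Totals for CPM were multiplied by TMM factors, which correct for makeup and were 0.926 to 0.967 in control and 1.04 to 1.07 in senescent libraries. WT control replicate 3 lay apart from all other libraries on the fourth principal component. Without it the Ccl2 interaction no longer passed (0.70, edgeR adjusted p = 0.0826), signs that had not passed changed for Cxcl16 in KO against WT control cells (-0.066) and in its interaction (0.23) and for the Ccl8 interaction (-1.35), and the other chemokine values tested kept their direction and their side of the test. Arntl, the gene of BMAL1, was at 31.5 ± 1.72 CPM (SD, n = 3) in WT control, 36.1 ± 1.10 CPM in WT senescent, 13.2 ± 1.82 CPM in KO control and 26.6 ± 1.13 CPM in KO senescent cells. Arntl was lower in KO cells of either state, but a count over the whole gene does not show whether an exon was removed. Within KO cells it was 2.02-fold higher in senescent than in control cells (edgeR adjusted p = 1.96e-09). The authors reported loss of the Bmal1 transcript in KO cells, whereas these counts were lower but not absent. All 8 fibroblast markers had group means above the floor. The 6 chondrocyte markers, Col2a1 and Acan among them, did so too, and their summed level was 6941 to 8591 CPM in WT control, 1837 to 2132 CPM in WT senescent, 4534 to 6189 CPM in KO control and 581 to 675 CPM in KO senescent libraries. This sum moved with both senescence and genotype, and its part in the chemokine results was not tested. Macrophage markers summed to 12.3 to 22.5 CPM over all libraries, with the defining markers Adgre1 and Tyrobp at group means of 0.111 CPM or less. Others of the list were higher, Ptprc at 4.58 to 7.63 CPM and Csf1r at 2.24 to 2.90 CPM by group mean. Lyz2 was higher in senescent than in control cells, with group means of 1.96 against 0.351 CPM for WT and 2.86 against 0.191 CPM for KO, and so was Cd14, with 5.34 against 3.24 CPM and 4.75 against 2.60 CPM, and the part of these markers in the chemokine results was not tested. Of the T cell markers Cd3g was at 0 in all 12 libraries and Trac at 0.275 to 0.814 CPM by group mean. Keratinocyte markers summed to 2.60 to 5.17 CPM in control and 7.87 to 10.3 CPM in senescent libraries, and endothelial markers to 2.21 to 8.83 CPM over all libraries. In bulk RNA, fewer cells that make an mRNA and less of it per cell cannot be told apart. WT and KO cells came from different mice. Differences between cell isolations and genotype therefore cannot be told apart where KO levels or KO senescence responses are compared with those of WT. The KO and WT counts came as separate tables, which does not show whether handling differed.

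In both genotypes most of these chemokines were higher in senescent than in control cells. Calls required an adjusted p under 0.05 in edgeR's quasi-likelihood test (Benjamini-Hochberg over the 17416 genes tested) together with a log2 fold change over 1 in size. In WT cells 6 of the 10 chemokines were called higher and 0 lower, where 11.6% of all genes were called higher and 5.9% lower. In KO cells the count was likewise 6 higher and 0 lower, against 11.2% and 7.58% of all genes. Since the 10 were chosen with earlier results of these data known, these counts are a description and not an independent test. By adjusted p alone 8 were higher and 0 lower in WT cells, and 7 higher and 2 lower in KO cells, where 56.2% and 57.1% of all genes passed. The same 6 genes, Cxcl2, Cxcl16, Ccl2, Ccl7, Ccl8 and Ccl5, met both criteria in WT and in KO cells. Cxcl2, Ccl8 and Ccl5 had few counts in control cells and passed the filter on low counts through senescent libraries. Of the 7 other chemokines 3 were called higher in each genotype. By adjusted p alone those higher among these 7 were Cxcl12, Cxcl14, Cxcl16, Ccl2 and Ccl7 in WT cells. In KO cells Cxcl14, Cxcl16, Ccl2 and Ccl7 were higher, and Cxcl5 and Cxcl12 lower. The median log2 fold change of the 10 was 1.36 in WT and 1.61 in KO cells, or 1.19 and 1.46 with groups at the floor set to it, beside 0.025 in WT and -0.0028 in KO cells over all genes. Over the 7 chemokines other than Cxcl2, Ccl8 and Ccl5 the medians were 0.83 and 0.74. The test of the difference between the responses (the KO log2 fold change less the WT one, the interaction) called 0 chemokines higher and 1 lower, Cxcl12, where 1.15% and 2.51% of all genes were called. The former share was of 200 genes, which became 346 without WT control replicate 3.

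**Figure D1:**
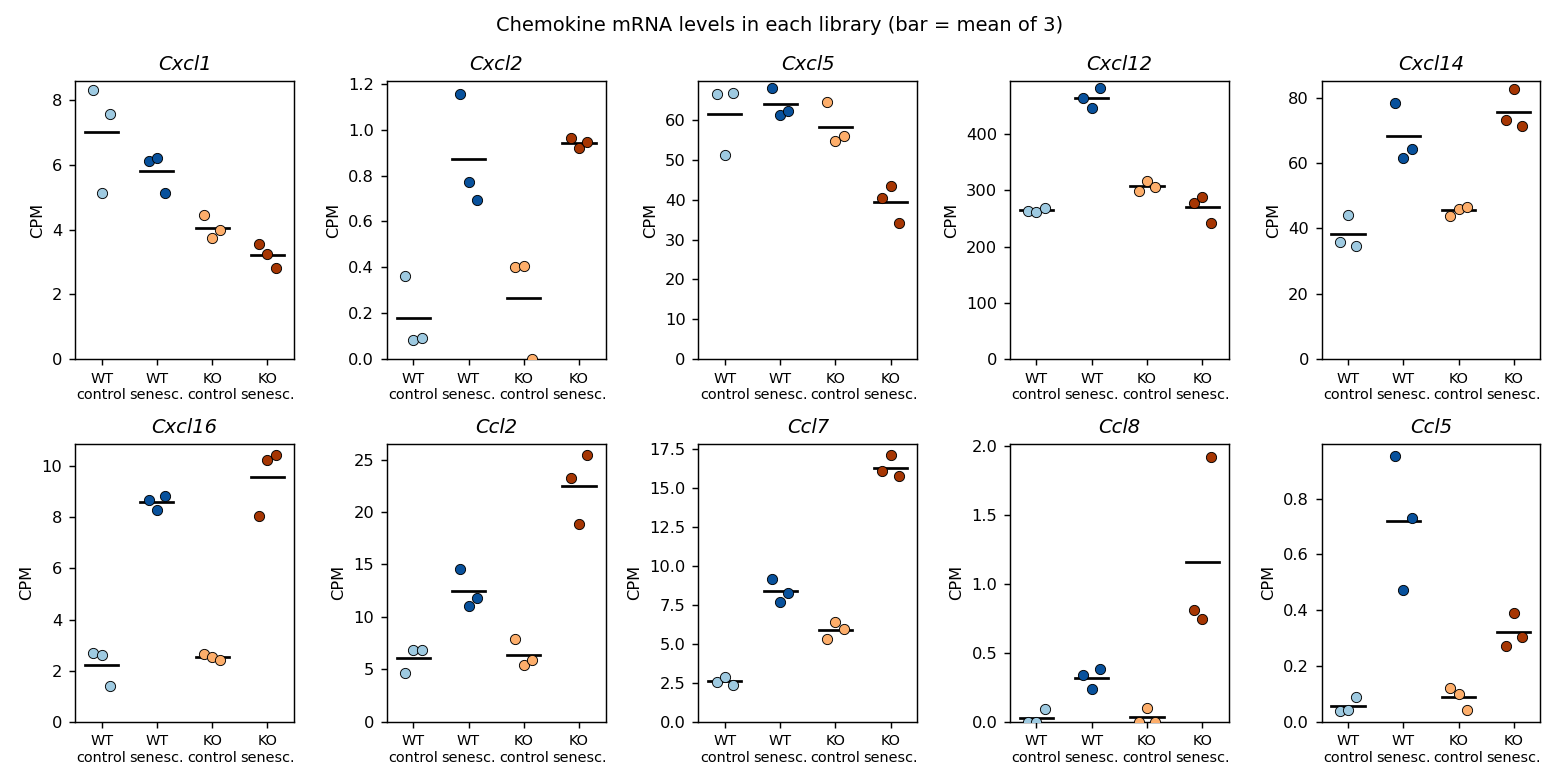
Level of each chemokine in CPM (vertical axes, each from 0) in the 12 libraries, by group (horizontal axes). Points are libraries and bars the mean of 3, and the panels of Cxcl16, Ccl2 and Ccl7 show all senescent libraries above all control libraries of their genotype, while Cxcl12 separates so only in WT cells.

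The neutrophil attractants did not respond together. Cxcl1, Cxcl2 and Cxcl5 lie on 1 stretch of chromosome 5 (GRCm38, plus strand), Cxcl5 (ENSMUSG00000029371) at 90759360 to 90761624, Cxcl1 (ENSMUSG00000029380) at 90891241 to 90893115 and Cxcl2 (ENSMUSG00000058427) at 90903871 to 90905938. The starts of Cxcl1 and Cxcl2 are 12.6 kb apart, and that of Cxcl5 is 132 kb before Cxcl1. The RefSeq promoter table (GRCm38.p6) held 5 of the 10 genes, Cxcl1, Cxcl2, Cxcl12, Cxcl14 and Ccl8. The 250 bases before the start are shown for the neighbours Cxcl1 and Cxcl2, which share a motif and differed in response, with the NF-kB motif in capitals.
Cxcl1, chr5:90890995-90891244, plus strand: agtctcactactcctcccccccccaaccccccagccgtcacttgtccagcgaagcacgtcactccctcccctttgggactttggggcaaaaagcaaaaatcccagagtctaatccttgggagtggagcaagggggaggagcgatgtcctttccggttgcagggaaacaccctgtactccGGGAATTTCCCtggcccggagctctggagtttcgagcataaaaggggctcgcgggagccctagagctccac
Cxcl2, chr5:90903649-90903898, plus strand: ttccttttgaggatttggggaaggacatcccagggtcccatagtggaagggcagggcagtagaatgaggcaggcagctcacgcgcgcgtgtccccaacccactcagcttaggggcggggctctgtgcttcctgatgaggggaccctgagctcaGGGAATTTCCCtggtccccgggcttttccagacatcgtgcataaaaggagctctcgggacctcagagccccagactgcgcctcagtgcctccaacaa
In each the capitals hold 2 overlapping matches, 1 per strand, and the run of letters is the same, GGGAATTTCCC, at positions -71 to -61 of Cxcl1 and -97 to -87 of Cxcl2 counted from the RefSeq start. The NF-kB motif was GGGRNWYYCC, where R is A or G, N any base, W A or T, and Y C or T. It was searched on both strands and occurs in 3.9% of the 32851 promoters of this length in the table. That share is of this pattern and not of the exact run GGGAATTTCCC. AP-1 (TGACTCA, both strands, in 4.46% of promoters) and the E-box (CACGTG, in 6.02%) had no match in the 5 windows, and the TATA motif (TATAAA, both strands, in 12.4%) matched in that of Ccl8 alone. The lack of a match says only that these letters are not in the window. A match is a description and not a bound site.

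The 3 WT control libraries held Cxcl1, by replicate number, at 8.32, 5.13 and 7.58 CPM, and the WT senescent ones at 6.12, 6.22 and 5.13 CPM. In KO cells it was at 4.44, 3.74 and 3.99 CPM in control and 3.55, 3.26 and 2.80 CPM in senescent libraries. Every KO library lay below every WT library, and control and senescent cells overlapped in WT. The senescence response did not pass the test, at a log2 fold change of -0.26 ± 0.17 (SE, adjusted p = 0.203) in WT and -0.34 ± 0.19 (adjusted p = 0.127) in KO cells by edgeR. The 95% interval of the WT response was -0.62 to 0.10, and without WT control replicate 2 the value was -0.45 with an edgeR adjusted p of 0.0275, still short of the fold change for a call. KO levels were lower by 1.73-fold in control (log2 -0.79 ± 0.18, edgeR adjusted p = 0.00483) and by 1.82-fold in senescent cells (log2 -0.87 ± 0.18, edgeR adjusted p = 0.00126), both short of the fold change for a call. The response differed by -0.08 ± 0.25 between genotypes (edgeR adjusted p = 0.874), with an interval of -0.60 to 0.45.

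Cxcl2, whose product is the closest relative of CXCL1 among these 10, was rare. It had 9, 2 and 2 counts in WT control replicates 1 to 3, or 0.0814 to 0.362 CPM, and 34, 23 and 18 counts in WT senescent cells. KO control libraries held 10, 12 and 0 counts and KO senescent libraries 25, 26 and 28. All senescent libraries were above all control libraries. The summed counts rose 4.86-fold in WT (95% counting interval 2.67 to 9.54) and 3.34-fold in KO cells (2.06 to 5.63), where counting intervals cover counting error only. WT control replicate 1 held 9 of the 13 WT control counts, and without it the fitted WT log2 fold change was 3.28. By edgeR the log2 fold change was 2.25 ± 0.62 in WT (adjusted p = 0.00415) and 1.75 ± 0.57 in KO cells (adjusted p = 0.012). Cxcl2 passed the filter on low counts through its senescent libraries, so these p-values are not independent of that filter. In senescent cells the level was 0.874 ± 0.247 CPM in WT and 0.943 ± 0.0214 CPM in KO (SD, n = 3), and the difference of 0.10 ± 0.49 on the log2 scale (edgeR adjusted p = 0.905) had an interval of -0.91 to 1.12, too wide to place the genotypes close.

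Cxcl5 was the most abundant of these neutrophil attractants, per kilobase of exon as well. In WT cells it was at 66.5, 51.3 and 66.9 CPM in control and 68.1, 61.4 and 62.4 CPM in senescent libraries. In KO cells it was at 64.5, 54.8 and 56.0 CPM in control and 40.5, 43.5 and 34.2 CPM in senescent libraries. KO senescent cells thus lay below the other 9 libraries, which overlapped. Cxcl5 fell 1.48-fold in KO senescent cells (log2 -0.57 ± 0.11, edgeR adjusted p = 0.000557) and had a log2 fold change of 0.06 ± 0.11 in WT cells (edgeR adjusted p = 0.68, interval -0.18 to 0.29). The difference between these responses was itself past the adjusted p of 0.05, at -0.63 ± 0.15 on the log2 scale (edgeR adjusted p = 0.0115). Between senescent cells Cxcl5 was 1.63-fold lower in KO (edgeR adjusted p = 0.000389), and between control cells the log2 difference was -0.08 ± 0.11 (edgeR adjusted p = 0.727).

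Cxcl12, the ligand of CXCR4 that retains stem cells and lymphocytes in tissues, showed the clearest difference in response between WT and KO cells. It lies at chromosome 6, 117168535 to 117181367 (GRCm38, plus strand, ENSMUSG00000061353). WT control replicates 1 to 3 held 262, 261 and 269 CPM, and WT senescent libraries 464, 446 and 482 CPM. KO control libraries held 299, 317 and 306 CPM, and KO senescent libraries 278, 289 and 242 CPM. WT senescent cells stood above the other 9 libraries, and KO senescent libraries lay below all KO control libraries. The level rose 1.76-fold in WT cells (log2 0.81 ± 0.06, edgeR adjusted p = 1.47e-10) and fell by 0.19 ± 0.06 on the log2 scale in KO cells (edgeR adjusted p = 0.0087). The KO fall rests on KO senescent replicate 3, without which it was -0.12 with an edgeR adjusted p of 0.0614.

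The interaction for Cxcl12 was -1.002 ± 0.08 on the log2 scale (edgeR adjusted p = 2.29e-07, 95% interval -1.17 to -0.83). Its size sat at the fold change needed for a call, so that leaving out a single library gave -1.06 to -0.93 and ended the call in 5 of 12 cases (WT control replicates 1 and 2, WT senescent replicate 3, KO control replicate 2 and KO senescent replicate 3), with adjusted p-values of 4.04e-06 or less. KO senescent cells had 1.72-fold less Cxcl12 than WT senescent cells (log2 -0.78 ± 0.06, edgeR adjusted p = 5.84e-09), while KO control cells had 1.16-fold more than WT control cells (log2 0.22 ± 0.06, edgeR adjusted p = 0.0158, which was 0.0643 without WT control replicate 1 and 0.0772 without KO control replicate 2). The 250 bases before the RefSeq start of Cxcl12 are given as the promoter of the chemokine whose interaction was called, with no capitals because none of the motifs named above occurred in it. Of its bases 64.4% were G or C, with 14 CpG pairs.
Cxcl12, chr6:117168285-117168534, plus strand: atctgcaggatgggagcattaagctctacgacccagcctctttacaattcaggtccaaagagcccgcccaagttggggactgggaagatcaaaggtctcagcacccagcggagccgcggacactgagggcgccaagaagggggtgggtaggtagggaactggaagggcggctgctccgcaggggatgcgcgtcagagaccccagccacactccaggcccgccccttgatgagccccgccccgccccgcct

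Cxcl14, a chemokine of skin and other epithelia made by fibroblasts as well, rose in both genotypes. It lies at chromosome 13, 56288643 to 56296551 (GRCm38, minus strand, ENSMUSG00000021508). WT libraries held 35.9, 44.2 and 34.6 CPM in control and 78.4, 61.7 and 64.4 CPM in senescent cells. KO libraries held 43.7, 46.0 and 46.7 CPM in control and 73.2, 82.7 and 71.2 CPM in senescent cells. Senescent libraries were above all control libraries, and the genotypes overlapped in either state. The rise was 1.78-fold in WT (log2 0.83 ± 0.10, edgeR adjusted p = 4.16e-06) and 1.67-fold in KO cells (log2 0.74 ± 0.10, edgeR adjusted p = 1.31e-05), in both below the fold change for a call. The responses differed by -0.10 ± 0.14 (edgeR adjusted p = 0.678), with an interval of -0.40 to 0.20.

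Cxcl16 encodes a chemokine that is made as a transmembrane protein, is shed by ADAM10 and ADAM17, and binds CXCR6. It lies at chromosome 11, 70453983 to 70459984 (GRCm38, minus strand, ENSMUSG00000018920), where its exons overlap those of Zmynd15, so that part of its count is uncertain. WT control libraries held 2.69, 2.60 and 1.40 CPM, the last being WT control replicate 3, and WT senescent libraries 8.67, 8.27 and 8.83 CPM. KO libraries held 2.64, 2.52 and 2.40 CPM in control and 8.06, 10.2 and 10.4 CPM in senescent cells. Control and senescent libraries did not overlap. Cxcl16 rose 3.82-fold in WT (log2 1.93 ± 0.19, edgeR adjusted p = 1.46e-08) and 3.79-fold in KO cells (log2 1.92 ± 0.18, edgeR adjusted p = 9.75e-09). The responses differed by -0.01 ± 0.25 (edgeR adjusted p = 0.988, interval -0.54 to 0.52), and by 0.23 without WT control replicate 3.

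**Figure D2:**
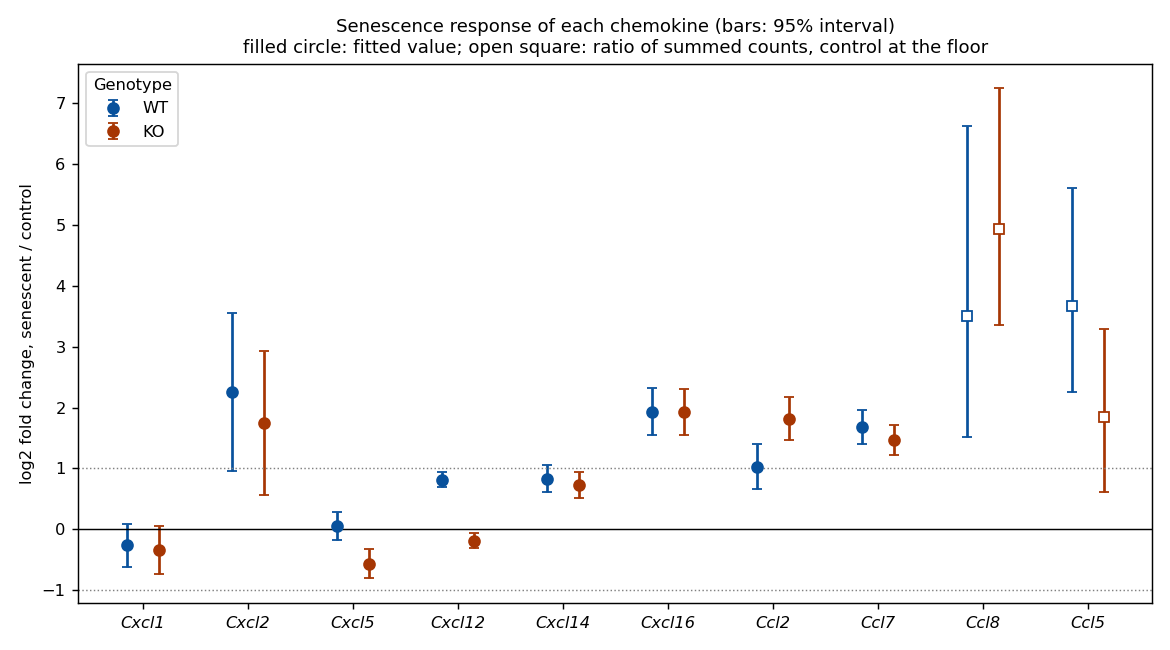
Senescence response of each chemokine (log2 fold change, senescent over control) in WT and KO cells, with 95% intervals as bars. Filled circles are fitted values, and open squares for Ccl8 and Ccl5 are ratios of summed counts with counting intervals, since their control libraries were at the floor. The WT and KO intervals are apart for Cxcl12 (0.69 to 0.93 against -0.31 to -0.07), for Cxcl5 (-0.18 to 0.29 against -0.81 to -0.33) and, in the other direction, for Ccl2 (0.66 to 1.40 against 1.46 to 2.18).

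The monocyte chemoattractant protein genes rose in both genotypes and were higher in KO than in WT senescent cells. Ccl2 (ENSMUSG00000035385), Ccl7 (ENSMUSG00000035373) and Ccl8 (ENSMUSG00000009185) lie on the plus strand of chromosome 11 (GRCm38) at 82035571 to 82037453, 82045712 to 82047525 and 82115185 to 82116799. Ccl2 and Ccl7 start 10.1 kb apart and Ccl8 starts 69.5 kb after Ccl7. The eosinophil attractant Ccl11 and the related Ccl12 lie between Ccl7 and Ccl8, and had at most 5 and 0 counts in any library.

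Ccl2 encodes the main attractant of monocytes. WT control libraries held 4.66, 6.84 and 6.86 CPM and WT senescent libraries 14.6, 11.1 and 11.8 CPM. It was at 7.88, 5.45 and 5.88 CPM in KO control and 23.2, 18.9 and 25.5 CPM in KO senescent libraries. The KO senescent libraries exceeded all others, and the control libraries of the genotypes overlapped. The rise was 2.05-fold in WT (log2 1.03 ± 0.17, edgeR adjusted p = 8.79e-05) and 3.53-fold in KO cells (log2 1.82 ± 0.17, edgeR adjusted p = 9.8e-08). The WT value sat near the fold change for a call and fell to 0.86 without WT control replicate 1 and to 0.90 without WT senescent replicate 1, which ended the call. The KO response was larger by 0.79 ± 0.24 on the log2 scale (edgeR adjusted p = 0.0302, interval 0.27 to 1.30), and its adjusted p rose above 0.05 (up to 0.0881) when any 1 of 8 of the 12 libraries was left out (WT control replicates 2 and 3, WT senescent replicates 2 and 3, KO control replicates 2 and 3, KO senescent replicates 1 and 3). Between senescent cells Ccl2 was 1.80-fold higher in KO (log2 0.85 ± 0.16, edgeR adjusted p = 0.000847).

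Ccl7, which shares receptors with CCL2 and attracts monocytes, differed between genotypes already in control cells. WT libraries held 2.57, 2.85 and 2.35 CPM in control and 9.14, 7.70 and 8.25 CPM in senescent cells. KO libraries held 5.32, 6.39 and 5.96 CPM in control and 16.0, 17.1 and 15.7 CPM in senescent cells. The 4 groups did not overlap, with WT control lowest, then KO control, then WT senescent, and KO senescent highest. Ccl7 rose 3.22-fold in WT (log2 1.69 ± 0.13, edgeR adjusted p = 7.86e-10) and 2.76-fold in KO cells (log2 1.46 ± 0.12, edgeR adjusted p = 8.86e-10), and the responses differed by -0.22 ± 0.18 (edgeR adjusted p = 0.414, interval -0.60 to 0.15). KO levels were 2.27-fold higher in control (log2 1.18 ± 0.14, edgeR adjusted p = 3.87e-06) and 1.95-fold higher in senescent cells (log2 0.96 ± 0.11, edgeR adjusted p = 3.31e-06). It was the only one of the 10 called between the control groups, 1 higher and 0 lower, where 1.36% of all genes were called higher and 1.18% lower in KO. The count behind the latter share, 205 genes, was 87 without WT control replicate 1 and 542 without WT control replicate 3, and it also moved by over 1.5 times without WT control replicate 2 or KO control replicate 2 or 3.

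Ccl8, the last of the group, was close to absent from control cells. WT control replicates 1 to 3 had 0, 0 and 2 counts and KO control replicates 0, 3 and 0, all at or under the floor of 3, so that replicate 3 held all Ccl8 counts of WT control and replicate 2 all those of KO control cells. WT senescent libraries had 10, 7 and 10 counts, and KO senescent libraries 21, 21 and 57. Summed counts were 11.4-fold higher in WT senescent than in WT control cells (95% counting interval 2.86 to 98.6, edgeR adjusted p = 0.00739), and 30.7-fold higher in KO (10.2 to 152, edgeR adjusted p = 2.13e-05). KO senescent cells had 3.72 times the WT senescent counts (2.41 to 5.93, edgeR adjusted p = 0.0163). KO senescent replicate 3 held most of those counts, and the edgeR adjusted p was 0.184 without it and 0.0846 without WT senescent replicate 2. Ccl8 was the only one of the 10 called between the senescent groups, 1 higher and 0 lower, where 1.29% of all genes were called higher and 2.19% lower in KO. It passed the filter on low counts only because of its KO senescent counts. This call and the test of the KO rise are therefore not independent of that filter.

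Ccl5, which attracts T cells and monocytes, went the other way between the senescent groups. It lies apart from the other CC genes of the list, at chromosome 11, 83525778 to 83530518 (GRCm38, minus strand, ENSMUSG00000035042). WT control libraries had 1, 1 and 2 counts and KO control libraries 3, 3 and 1, all at or under the floor. WT senescent libraries had 28, 14 and 19 counts, and KO senescent libraries 7, 11 and 9. The summed counts were 12.8-fold higher in WT senescent cells (95% counting interval 4.76 to 48.6, edgeR adjusted p = 5.08e-05) and 3.59-fold higher in KO senescent cells (1.53 to 9.77, edgeR adjusted p = 0.0177). The KO call was lost without KO control replicate 3 (edgeR adjusted p = 0.0733) or KO senescent replicate 2 (edgeR adjusted p = 0.0612). Every KO senescent library lay below every WT senescent library, at 0.449 times the counts (0.275 to 0.718), a difference that did not pass the test across all genes (log2 -1.15 ± 0.45, edgeR adjusted p = 0.0733). Ccl5 passed the filter on low counts only because of its WT senescent counts. This difference and the test of the WT rise are therefore not independent of that filter.

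**Figure D3:**
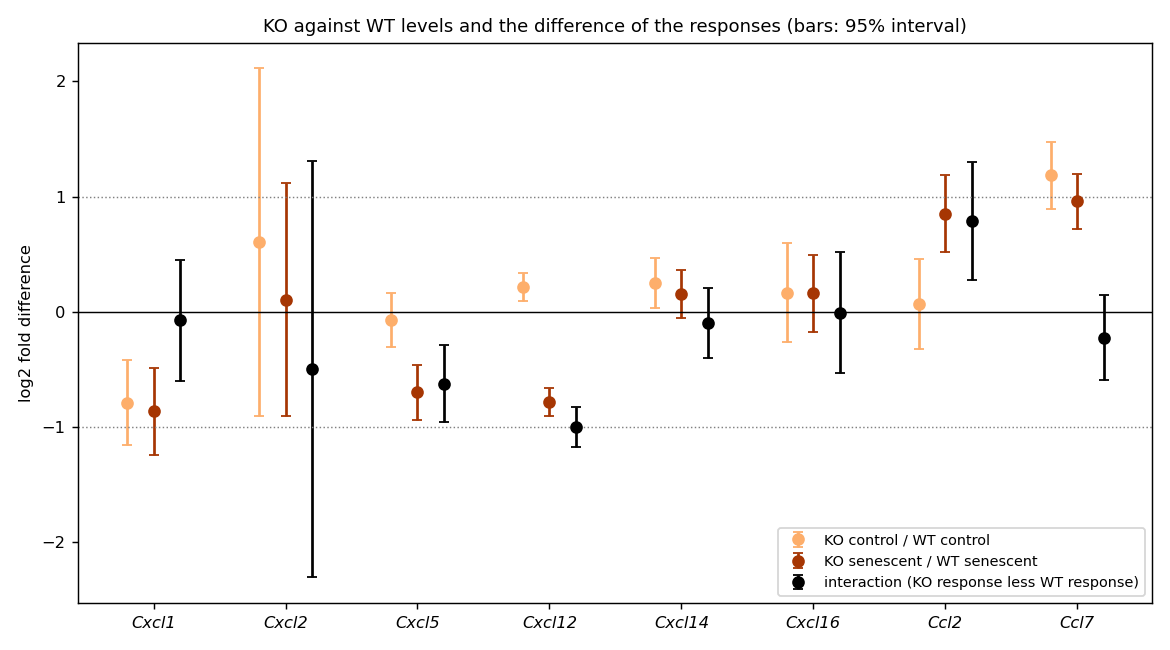
KO against WT levels (log2 fold difference) in control and in senescent cells, and the interaction, for the 8 chemokines whose control libraries were not all at the floor. Bars are 95% intervals. Ccl7 is higher in KO in both states and Cxcl1 lower in both, whereas Cxcl5, Cxcl12 and Ccl2 have intervals away from 0 for the interaction.

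By adjusted p alone, 6 of the 10 chemokines differed between KO and WT senescent cells, 3 higher in KO (Ccl2, Ccl7 and Ccl8) and 3 lower (Cxcl1, Cxcl5 and Cxcl12), where 23.7% of all genes passed. Of these, Ccl8 was tested only because of its KO senescent counts. Between control cells 3 passed, Ccl7 and Cxcl12 higher and Cxcl1 lower, where 13% of all genes did. Cxcl12 no longer passed there without WT control replicate 1 (adjusted p = 0.0643) or KO control replicate 2 (adjusted p = 0.0772), by edgeR. The interaction passed for 3, Ccl2 higher and Cxcl5 and Cxcl12 lower, where 20.9% of all genes did. These comparisons share libraries and are not independent of each other.

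Levels of different genes were compared per kilobase of exon, with the exons of all annotated transcripts of a gene merged. On this scale Cxcl5, Cxcl12 and Cxcl14 made up most of the chemokine mRNA in all groups. The merged length was 8176 bases for Cxcl12, 1863 for Cxcl5 and 1827 for Cxcl14. If shorter transcripts of a gene prevail, its level per kilobase is too low, so the order below depends on this length. Which transcripts were present was not tested. In WT control cells Cxcl5 (33.0 ± 4.78 CPM per kb, SD, n = 3) and Cxcl12 (32.3 ± 0.546) led and did not differ beyond their spread, followed by Cxcl14 (20.9 ± 2.86). In WT senescent cells the order was Cxcl12 (56.8 ± 2.20), Cxcl14 (37.3 ± 4.90) and Cxcl5 (34.4 ± 1.95). The means of the last 2 did not differ beyond their spread between libraries. Within each WT senescent library Cxcl14 was above Cxcl5 (42.89 against 36.57, 33.75 against 32.97 and 35.25 against 33.49). In KO control cells Cxcl12 (37.6 ± 1.11) led Cxcl5 (31.3 ± 2.85) and Cxcl14 (24.9 ± 0.847).

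In KO senescent cells Cxcl14 (41.4 ± 3.36 CPM per kb) came first, Cxcl12 (33.0 ± 2.99) second, and Cxcl5 (21.1 ± 2.55), Ccl7 (20.3 ± 0.884) and Ccl2 (19.8 ± 2.94) followed within each other's spread. The means of the other 5 genes were each under 4 CPM per kb in all groups. Summed over Ccl2, Ccl7 and Ccl8 the level was 8.67 ± 1.20 CPM per kb in WT control, 22.0 ± 2.62 in WT senescent, 13.1 ± 0.479 in KO control and 42.4 ± 3.22 in KO senescent cells. The sum of the ELR chemokines Cxcl1, Cxcl2 and Cxcl5 was 36.9 ± 5.69, 37.9 ± 2.18, 33.6 ± 3.08 and 23.3 ± 2.71 CPM per kb in the same order. KO senescent cells were therefore the only group whose sum over Ccl2, Ccl7 and Ccl8 (39.4 to 45.8 CPM per kb over its libraries) exceeded the ELR sum (20.3 to 25.5). This ELR sum is of Cxcl1, Cxcl2 and Cxcl5 only and leaves out Cxcl3 and Ppbp of the chromosome 5 cluster. In WT cells the mean of Cxcl3 fell from 1.53 to 0.372 and that of Ppbp from 10.87 to 3.41 CPM per kb. The sum over all 10 genes was 99.5 ± 2.4, 157.5 ± 10.5, 110.1 ± 1.9 and 143.6 ± 5.5 CPM per kb in the same order of groups.

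**Figure D4:**
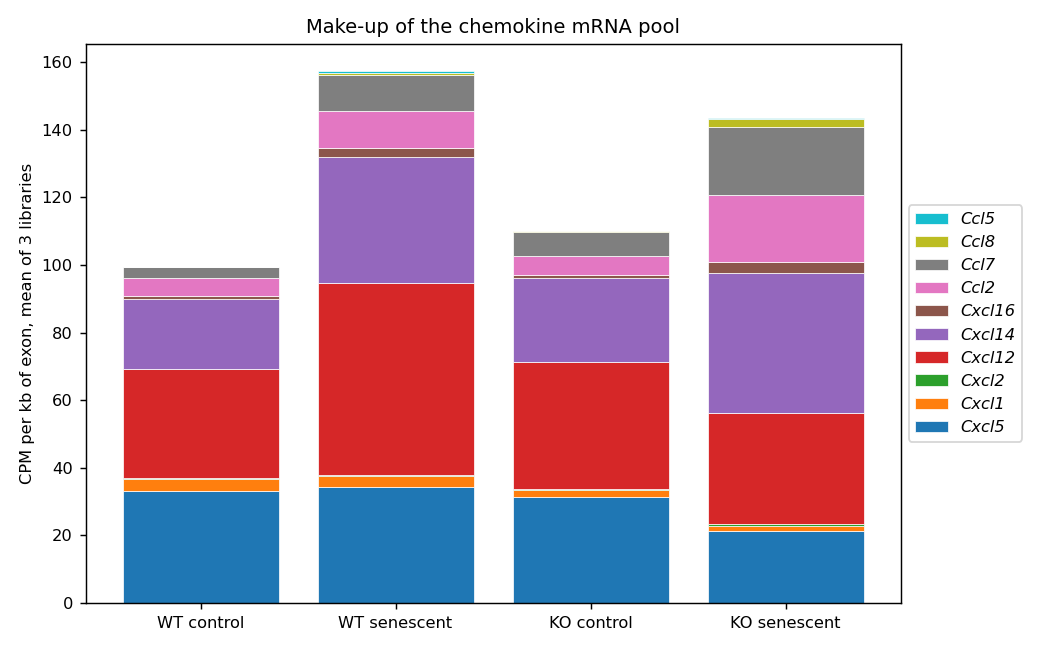
Mean level of the 10 chemokines per kilobase of exon (vertical axis, CPM per kb, mean of 3 libraries), stacked by gene for each group. The red segment of Cxcl12 is tallest in WT senescent cells (56.8), and the segments of Ccl2 and Ccl7 are tallest in KO senescent cells (19.8 and 20.3).

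Of 28 other chemokine ligands, 11 had enough counts to be tested. In WT cells 2 were called higher and 3 lower with senescence, and in KO cells 3 higher and 1 lower, where 11.6% of all genes were called higher and 5.9% lower in WT, and 11.2% and 7.58% in KO cells. The medians were -0.07 and -0.27 on the log2 scale. Cxcl10, an interferon-induced attractant of T cells, rose in WT cells from 0.383 ± 0.151 to 2.86 ± 1.67 CPM (log2 2.91 ± 0.50, edgeR adjusted p = 9.6e-05, and 2.32 without WT senescent replicate 2), and in KO cells from 0.314 ± 0.218 to 1.28 ± 0.535 CPM (log2 2.00 ± 0.54, edgeR adjusted p = 0.00423), with exons that overlap those of Art3. Cxcl3, a further ELR chemokine of the chromosome 5 cluster, fell in WT cells from 5.36 ± 1.08 to 1.30 ± 0.282 CPM (log2 -2.04 ± 0.23, edgeR adjusted p = 1.98e-07), and in KO cells from 2.78 ± 0.443 to 1.08 ± 0.176 CPM (log2 -1.36 ± 0.25, edgeR adjusted p = 7.41e-05). Ppbp, the platelet chemokine gene of the same cluster, fell in WT cells from 11.8 ± 3.75 to 3.69 ± 0.957 CPM (log2 -1.68 ± 0.25, edgeR adjusted p = 3.15e-05) and was lower in KO than in WT control cells (log2 -1.56 ± 0.25, edgeR adjusted p = 0.000589). Cxcl3 and Ppbp thus fell in WT cells in the cluster in which Cxcl2, tested only through its senescent counts, rose. Ccl9, a CC chemokine of myeloid cells, was at 17.4 ± 0.583 CPM in WT control and 14.4 ± 0.206 in WT senescent cells, against 8.33 ± 0.440 and 6.91 ± 0.344 CPM in KO cells, and was called lower in KO in both states (log2 -1.06, edgeR adjusted p = 8.07e-08 and 8.63e-08). The other calls, chosen for naming after their values were seen, fell on Ccl6, Ccl17 and Ccl28, each under 2 CPM.

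Of 22 chemokine receptors 12 were tested. Cxcr2 and Ccr2, whose products bind CXCL1 and CCL2, were not among them and had at most 3 counts in any library. In WT cells 3 receptors were called higher and 1 lower with senescence, and in KO cells 4 higher and 2 lower, beside shares of 11.6% and 5.9% of all genes in WT and 11.2% and 7.58% in KO cells. Cxcr6, which binds CXCL16, rose as well, in WT cells from 0.293 ± 0.0291 to 1.30 ± 0.553 CPM (log2 2.14 ± 0.39, edgeR adjusted p = 8.54e-05), and in KO cells from 0.702 ± 0.245 to 2.75 ± 0.455 CPM (log2 1.96 ± 0.32, edgeR adjusted p = 2.37e-05). The Cxcr6 difference between KO and WT senescent cells (log2 1.07 ± 0.30, edgeR adjusted p = 0.0114) lost its call without WT senescent replicate 2 or 3 or KO senescent replicate 3. Ackr3, a scavenger receptor that takes up CXCL12, rose by 0.55 ± 0.06 on the log2 scale in WT (edgeR adjusted p = 2.21e-07) and 0.61 ± 0.06 in KO cells (edgeR adjusted p = 4.03e-08), going from 28.8 ± 1.97 CPM in control to 42.2 ± 1.41 in senescent cells of WT and, likewise, from 31.2 ± 1.16 to 47.6 ± 0.545 CPM in KO. Cxcr4, the signalling receptor of CXCL12, had log2 fold changes of 0.25 ± 0.60 in WT (edgeR adjusted p = 0.747) and 1.41 ± 0.68 in KO cells (edgeR adjusted p = 0.0998). The KO value of Cxcr4 was called with DESeq2 (1.45, adjusted p = 0.039), and with edgeR without the filter on low counts (1.40, adjusted p = 0.00188), with only the groups compared (1.42, adjusted p = 0.0266) or without WT control replicate 3 (1.40, adjusted p = 0.00833). Without that library the WT value of Cxcr4 was -0.24 (edgeR adjusted p = 0.639). The remaining calls were of Ackr4 and Ccr1 (higher in both genotypes), Cxcr1 (lower in both), and Xcr1 (higher) and Ccr6 (lower) in KO cells, each under 2 CPM.

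All 16 genes of chemokine shedding, cleavage and anchoring were tested, and 3 were called higher and 0 lower in each genotype, beside 11.6% and 5.9% of all genes in WT and 11.2% and 7.58% in KO cells. Mmp3, a matrix protease that also trims chemokines, went up in WT cells, from 34.8 ± 4.73 to 110.0 ± 3.68 CPM, and in KO cells from 44.1 ± 2.85 to 190.1 ± 3.54 CPM (log2 1.66 ± 0.07 and 2.11 ± 0.07, edgeR adjusted p = 8.33e-14 and 1.47e-15). Hs3st1, a heparan sulphate sulphotransferase, was called higher in both as well (log2 1.91 ± 0.20 and 1.47 ± 0.20, edgeR adjusted p = 7.53e-08 and 1.8e-06). Mmp9, another matrix protease, was at 1.59 ± 0.315 CPM in control and 1.86 ± 0.488 CPM in senescent WT cells, and at 1.34 ± 0.125 and 4.41 ± 0.730 CPM in those of KO, a rise called in KO cells (log2 1.71 ± 0.24, edgeR adjusted p = 3.16e-06) with a larger response than in WT cells (interaction 1.48 ± 0.35, edgeR adjusted p = 0.0044). The call of Sulf2, a heparan sulphate sulphatase, in WT cells (log2 1.01 ± 0.06, edgeR adjusted p = 2.4e-12) sat at the threshold and ended, at log2 values of 0.97 to 1.00, with DESeq2, with its size factors, without the filter on low counts, with only the groups compared, and when WT senescent replicate 2 or either of WT control replicates 1 and 2 was left out. Adam10 and Adam17, which shed CXCL16, both fell with senescence, Adam10 by 0.44 ± 0.05 in WT and 0.46 ± 0.05 in KO cells and Adam17 by 0.32 ± 0.06 in WT and 0.66 ± 0.06 in KO cells on the log2 scale (edgeR adjusted p at most 0.000105).

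All 19 regulators of the NF-kB and C/EBP group were tested, and 0 were called higher and 1 lower in each genotype, against the same shares of all genes (11.6% and 5.9% in WT, 11.2% and 7.58% in KO cells). That gene was Bcl3, a nuclear partner of NF-kB subunits, with log2 fold changes of -1.05 ± 0.09 in WT (edgeR adjusted p = 5.15e-09) and -1.65 ± 0.10 in KO cells (edgeR adjusted p = 4.61e-12); its WT value was just short of the fold change for a call when WT senescent replicate 2 (-0.97) or WT control replicate 1 (-0.97) was left out, with edgeR adjusted p-values of 1.37e-07 and 1.49e-07, and its exons overlap another annotated gene. Cebpd, a C/EBP factor, was at 90.3 ± 1.44 CPM in WT control, 127.1 ± 5.74 in WT senescent, 85.2 ± 2.23 in KO control and 72.3 ± 11.6 CPM in KO senescent cells. Its responses differed between genotypes (interaction -0.73 ± 0.11, edgeR adjusted p = 0.000235), with a rise of 0.49 ± 0.08 in WT cells (edgeR adjusted p = 3.32e-05). The KO value of Cebpd was -0.24 (edgeR adjusted p = 0.0169, and up to 0.0969 with 1 library left out). The Cebpb interaction was -0.75 (edgeR adjusted p = 0.0112). Short of a call, Rela rose (log2 0.25 in WT and 0.46 in KO cells) and Nfkb1 fell (-0.32 and -0.61), with edgeR adjusted p of 0.00298 or less.

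The genes whose pattern over the 12 libraries came closest to that of a chemokine were found by the root mean square difference of centred log2 CPM among 10945 tested genes. Cxcl12 came closest to Adamtsl3 (0.104), Scara3 (0.114) and Zfp608 (0.115), and Cxcl14 to Zbtb4 (0.116), Fzd7 (0.117) and Rilpl1 (0.123). Ccl2 was closest to Tmem200a (0.133), Cgnl1 (0.196) and Dusp4 (0.204), and Ccl7 to Syt17 (0.165), Cdh11 (0.193) and Thbs2 (0.211). Cxcl5 lay near H6pd (0.145), St5 (0.146) and Fzd1 (0.146), Cxcl16 near Grina (0.227), Sema3b (0.232) and Vstm2a (0.233), and Cxcl1 near Rps15a (0.211), Pim3 (0.212) and the chemokine Ccl9 (0.225). The 3 rarest had looser neighbours, Celf5 (0.329), Cemip (0.348) and Kcnk2 (0.374) for Ccl5, Nrcam (0.520), Map7d2 (0.565) and Serpinb9b (0.605) for Ccl8, and Capn5 (0.639), Rrad (0.670) and Inka2 (0.682) for Cxcl2. Among the 10 chemokines the closest pair was Cxcl1 and Cxcl5 (0.267), and Ccl2 and Ccl7 were 0.467 apart. These are descriptions of 12 libraries in 4 groups, in which any pair of genes with like group means comes out close.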

How the data were processed

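The authors made poly(A) libraries (NEBNext Ultra II) for paired-end sequencing. Reads were converted with bcl2fastq 2.17, trimmed with Trimmomatic 0.36 and mapped with STAR 2.5.2b to GRCm38, per the submitters' processing notes, and featureCounts counted unique reads in exons. The deposited values were raw counts per gene, in 1 table per genotype. The use of strand and the annotation release are not given in the sources used here, so counts of overlapping genes are uncertain, and reads shared by near-identical copies were not counted. Symbols and positions came from a GENCODE annotation of GRCm38, and promoters from RefSeq.

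The tests used edgeR 4.0.16 under R 4.3.3. Genes were kept by filterByExpr (17416 of 49315), and all 12 libraries entered 1 robust quasi-likelihood fit with a mean for each group, after scaling by TMM (trimmed mean of M-values). Standard errors are the log2 fold change over the square root of F. Intervals are 95% from that fit, and ratios of summed counts have exact binomial 95% intervals. Alternatives were DESeq2 1.42.0 and its size factors, other filters, only the groups compared, a fit that is not robust, a replicate block and leaving out each library. The script was tested on simulated data. The chemokines and all gene lists were chosen with earlier results of these data known. List genes were named where called with a mean of at least 1 CPM, up to 4 per list, comparison and direction. The others (Cxcr4, Ackr3, Cxcr2, Ccr2, Adam10, Adam17, Cebpd, Cebpb, Rela, Nfkb1 and genes under that level) were named after their values were seen. The 3 nearest genes in pattern were sought among tested genes averaging 5 CPM or more, with a prior count of 2 in log2 CPM. Floors and counting intervals cover counting error only.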

Additional observations from a re-analysis of the deposited data

Results flagged for a closer look

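For 3 chemokines the senescence response differed between genotypes by the interaction term of the edgeR fit. The KO log2 fold change less the WT one was -0.63 for Cxcl5 (adjusted p = 0.0115) and -1.002 for Cxcl12 (adjusted p = 2.29e-07), both lower in KO, and 0.79 for Ccl2 (adjusted p = 0.0302), higher in KO. Cxcl5 and Cxcl12 kept an adjusted p under 0.05 with any single library left out, and Ccl2 did not.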

How the results depend on the processing

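Of 886 values of single chemokines under alternatives, 851 kept their direction and their side of an adjusted p of 0.05, 15 lost it, 4 gained it and 16 changed sign, none of the last past the test. The count of chemokines called was 6 in WT and 6 in KO senescent against control cells, and became 3 in either with a filter at a mean of 1 CPM, which leaves Cxcl2, Ccl8 and Ccl5 untested. For the interaction the count of 1 became 0 with DESeq2 size factors, with DESeq2 and with the mean of 1 CPM, 3 without the fold change threshold, and 0 to 1 with single libraries left out. Between control groups the count of 1 became 3 without the fold change threshold. Between senescent groups the count of 1 became 0 with DESeq2, which gave Ccl8 no adjusted p, 0 with the mean of 1 CPM, 6 without the fold change threshold, and 0 to 2 with single libraries left out, 2 without WT senescent replicate 1.

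Signs changed as follows, on the log2 scale with 1 library left out: Cxcl5 in WT cells ranged from -0.062 to 0.12, the interaction of Cxcl1 from -0.22 to 0.11, of Cxcl14 from -0.22 to 0.01, of Cxcl16 from -0.16 to 0.23 and of Ccl8 from -1.35 to 4.64, KO against WT control cells for Cxcl16 from -0.066 to 0.32 and for Ccl2 from -0.11 to 0.18, Cxcl2 between senescent groups from -0.032 to 0.36, and Cxcr4 in WT cells from -0.24 to 0.64. The Cxcl16 interaction was 0.022 with DESeq2 size factors, 0.024 with DESeq2 and 0.011 with the mean of 1 CPM. The cause was not tested. Same-numbered control and senescent libraries had deviations that correlated at -0.13 to 0.11. With 3 libraries per group this cannot show whether the numbers pair the samples. With the replicate block the counts of chemokines called were 6, 6, 1, 1 and 1 in the order above, and no chemokine changed its side of the test. Depth limits Cxcl2, Ccl8 and Ccl5, at under 2 CPM in every library.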

Other observations

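Among 14 inflammatory cytokines, 12 were tested, and 3 were called higher and 0 lower with senescence in WT cells, against 5 higher and 1 lower in KO cells. Over all genes these shares were 11.6% and 5.9% in WT, and 11.2% and 7.58% in KO cells. Lif, an interleukin-6 family cytokine, went from 9.78 ± 0.552 CPM in control to 23.9 ± 3.76 CPM in senescent WT cells, and for KO from 5.31 ± 1.33 to 38.9 ± 5.83 CPM (SD, n = 3), with a larger response in KO (interaction 1.60 ± 0.23 on the log2 scale, edgeR adjusted p = 0.000401). Il11, of the same family, rose in KO cells (log2 1.93 ± 0.20, edgeR adjusted p = 9.57e-06) by more than in WT cells (interaction 1.20 ± 0.28, edgeR adjusted p = 0.0125). Csf1, the growth factor of macrophages, was called higher in KO cells (log2 1.17 ± 0.11, edgeR adjusted p = 1.46e-06). It also rose in WT cells, short of a call (log2 0.49, edgeR adjusted p = 0.00183). Il15 was called higher in WT cells (log2 1.65 ± 0.24, edgeR adjusted p = 6.48e-06). In KO cells, where it was not called, its level went from 1.80 ± 0.551 CPM in control to 3.285 ± 0.600 CPM in senescent cells. Il6, a standard SASP factor, fell in both genotypes, by 0.76 ± 0.15 in WT (edgeR adjusted p = 0.000211) and 1.01 ± 0.16 on the log2 scale in KO cells (edgeR adjusted p = 1.16e-05), the latter at the fold change for a call, and not called with DESeq2, its size factors or a filter at a mean of 1 CPM, nor when replicate 3 of KO control or replicate 1 or 3 of KO senescent was left out. Csf2 in both genotypes and Tslp in KO cells, each under 1 CPM, made up the other calls. Il1b and Tnf had at most 6 and 2 counts in any library.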
